A study of Mus musculus with 24 samples.

Results

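Late mammary carcinomas were compared with the hyperplastic glands from which this model starts, in the same genotype: 3 PyMT samples at week 12 (late carcinoma) against 3 PyMT samples at week 6 (hyperplasia), which are 6 of the 24 samples of the series. The samples were chosen by the genotype and week in their labels. All 6 came from female F1 mice heterozygous for the PyMT transgene on the FVB background, and the mammary tissue was snap-frozen before total RNA was extracted. The mouse mammary tumor virus promoter restricts the transgene to mammary epithelia, while the RNA came from whole tissue that also holds fat, vessels and stroma. As controls for age, 3 FVB females at week 6 and 3 at week 12, of the same strain without the transgene, were put through the same comparison. The remaining 12 samples, PyMT and FVB at week 8 (adenoma/MIN in PyMT) and at week 10 (early carcinoma in PyMT), were used only to place the values of single genes in time. The names of the stages follow the age of the mice, and the paper reports that a pathologist saw features typical of the stages in the PyMT tumors. By the same report, carcinoma samples were mostly tumor cells, with few stromal, muscle or inflammatory cells. The litters and the tumor sizes of single mice were not analysed here.

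Polyoma middle T antigen is a membrane protein without enzyme activity of its own that binds Src family kinases and recruits Shc and PI3-kinase, so that growth and survival signals run without a ligand. In hyperplasia the epithelium has overgrown inside the gland, and late carcinoma is a malignant epithelial tumor. A comparison of whole tissue between these stages can hold changes inside tumor cells and changes in which cells are present. In bulk RNA, fewer cells of a type and less RNA per cell cannot be told apart.

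The 6 PyMT libraries held 7026040 to 13516601 counted reads, and 14918 genes were tested. In all 3 week 6 libraries and in replicate 1 of week 12, the number of genes by count peaked at 12 to 25 reads, and the other 2 week 12 libraries showed no such peak. Of 3799 genes with an average CPM of 10 to 30, the share listed at 0 was highest in replicate 2 of week 6 (1.66%) and in replicate 1 among the week 12 samples (0.316%). The correlation of log2 values between 2 libraries was 0.838 to 0.898 within week 6, 0.899 to 0.95 within week 12 and 0.821 to 0.922 between the weeks. The peak was thus unevenly spread over the stages. With the counts divided by it, 142 genes were differentially expressed by the thresholds given below, against 32 without the division, and 31 were shared. The reason for this difference, and the part of the peak in single results, were not tested.

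Luminal epithelium was present at both stages: the 12 luminal markers, keratins 8 and 18 and Epcam among them, summed to 35610, 33960 and 40850 normalized counts at week 6 and to 39970, 37380 and 46310 at week 12. These sums overlapped and lay above the 10880 to 27050 of the FVB samples of both weeks. The 10 basal and myoepithelial markers summed to 2083 to 3189 at week 6 and to 2464, 6433 and 1489 in replicates 1, 2 and 3 of week 12. The 12 fibroblast markers summed to 36290 to 48780 and to 32450 to 53730, and the 12 macrophage markers to 4057 to 5488 and to 5369 to 8676. Of the T cell and B cell markers, 3 of 12 and 0 of 10 passed the filter on low counts, and the lists summed to 41.7 to 191 and to 0 to 35.2. Neutrophil markers summed to 66.7 to 183, dendritic cell markers to 86.6 to 397, mast cell markers to 0 to 153, Schwann cell markers to 2281 to 3442 and pericyte markers to 2701 to 4209 over both stages. Replicate 2 of week 12 alone held 2634 normalized counts of 6 skin keratinocyte markers, against 78.1 to 169 in the other 5 PyMT libraries. The same library held the highest basal sum, and the part of skin in that sum was not tested.

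Skeletal muscle and fat differed between the stages. The 12 skeletal muscle markers, fast myosins, troponins and alpha-actin of the body wall that underlies the mammary fat pad, summed to 33110, 20140 and 4261 normalized counts in the 3 hyperplasia samples and to 350, 523 and 1206 in the 3 late carcinoma samples. Muscle RNA was at 94.7 to 145 in the PyMT samples of week 8, ran from 75.5 to 29730 at week 10, while the FVB samples held 137 to 548500 (week 6) and 1245 to 338200 (week 12). Samples of 1 group thus spanned a wider range than the 2 stages. The 12 adipocyte markers summed to 16510, 32730 and 24930 at week 6 and to 15520, 10120 and 8373 at week 12, and brown fat markers to 420 to 6331 and to 74.8 to 2340. The 12 endothelial markers summed to 2087 to 2559 at week 6 and 1321 to 2040 at week 12. The part of these shares of tissue in the differences given below was not tested.

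**Figure D1:**
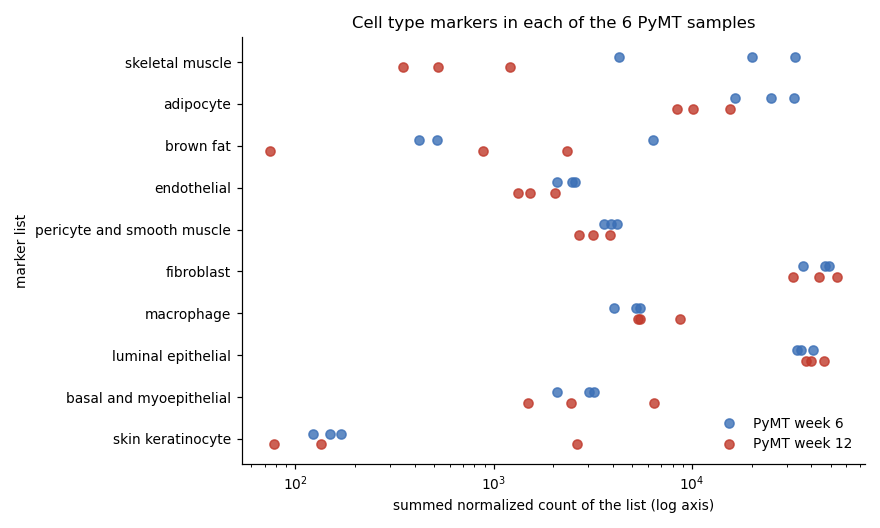
Summed normalized counts of 10 lists of cell type markers in each of the 3 PyMT week 6 (blue) and 3 PyMT week 12 (red) samples, on a log axis, 1 point per sample. Muscle markers lie at 4261 to 33110 in week 6 and at 350 to 1206 in week 12, while luminal markers overlap.

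Between hyperplasia and late carcinoma, 32 genes were differentially expressed (DEGs, adjusted p under 0.05 by edgeR's quasi-likelihood test and a change of more than 2-fold), 0.215% of the genes tested. Of these, 21 rose toward late carcinoma (0.141%) and 11 fell (0.0737%). With any size of change, 42 genes passed (0.282%), 25 higher (0.168%) and 17 lower (0.114%), and 1411 had an unadjusted p under 0.05 (9.46%). The genes that rose encode matrix and adhesion proteins (Col9a2, Col11a1, Papln, Itgb3, Chl1), receptors and ion channels (Boc, Grik3, Accn2), ion transport proteins (Atp6v1b1, Clic6), the complement component C4b, the inflammatory protease Casp1, the kinase Prkca and the Notch target Hey1. Those that fell encode contractile and other muscle proteins (Myl1, Tnni2, Klhl31, Ppp1r3a), the milk enzyme Lao1, and proteins of DNA precursor synthesis, amino acid uptake, lipid synthesis, nuclear structure and mitochondria (Rrm2, Slc7a5, Lpin1, Lmnb1, Letm1, Cyb5b). No DEG had overlapping groups. Over all genes, 7.93% had every week 12 sample above every week 6 sample and 8.31% had every one below. The test that chose the DEGs used the same values and favors separate groups, so this is no further evidence for them. The count of DEGs rested on single libraries: it was 96 without replicate 2 of week 6, 15 without replicate 1 of week 6 and 27 (7 higher, 20 lower) without replicate 3 of week 6, and it was 3, 15 and 14 without replicates 1, 2 and 3 of week 12. DESeq2's Wald test gave 182 DEGs, 31 of them among the 32, and a fit of all 24 samples gave 0, with 989 genes at an unadjusted p under 0.05.

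**Figure D2:**
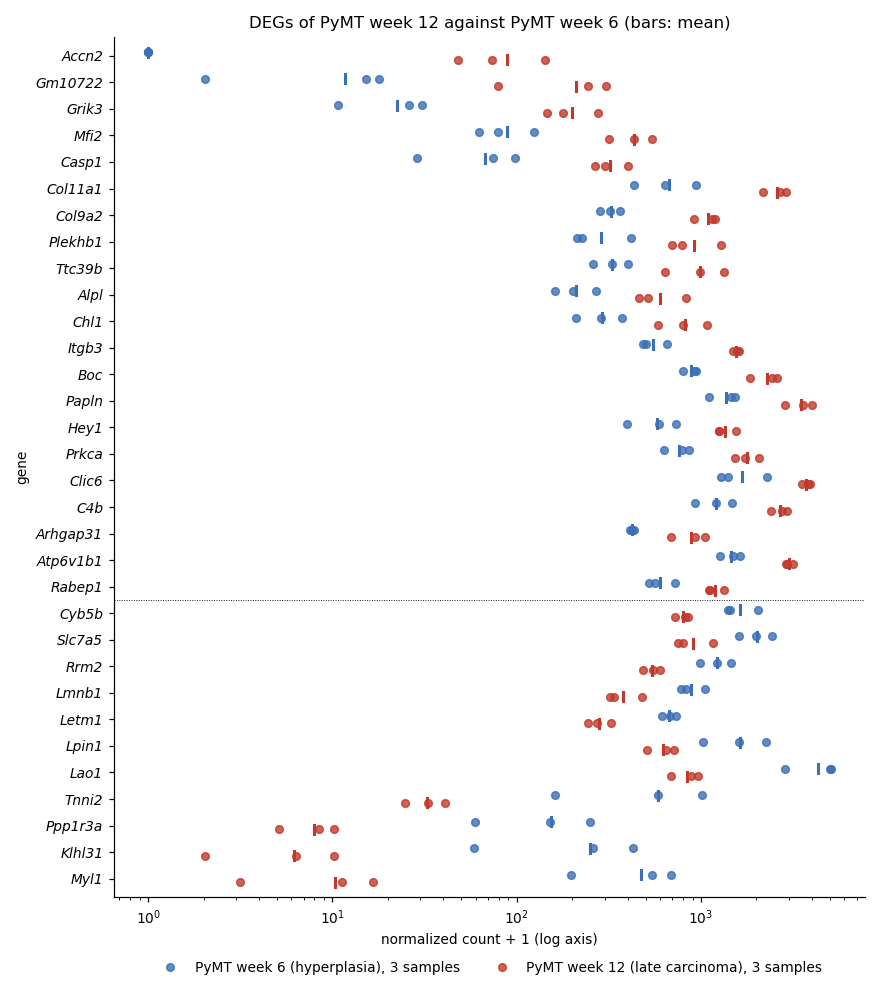
Normalized counts plus 1 of the 32 DEGs in each PyMT sample of week 6 (blue) and week 12 (red), on a log axis, with the mean of 3 samples as a vertical bar. Genes are ordered by log2 fold change, those above the dotted line rose and those below it fell, and no gene has overlapping groups.

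Col9a2, Itgb3, Col11a1 and Papln were among the DEGs that rose. Col9a2, on chr4:120711990-120727927 of mm9, encodes a chain of type IX collagen, which decorates fibrils in cartilage. It was at 364, 284 and 321 normalized counts in hyperplasia and at 911, 1151 and 1192 in late carcinoma. The log2 fold change was 1.78 ± 0.195 (SE, n = 3 and 3; adjusted p = 0.00209), and the call held with each of the 6 libraries left out in turn. Itgb3, on chr11:104469370-104531790, encodes integrin beta 3, which pairs with alpha V as a receptor for vitronectin and other matrix proteins. It rose from 652, 504 and 483 to 1484, 1613 and 1561 normalized counts (log2 fold change 1.54 ± 0.169, adjusted p = 0.00209), and this call too held without each library. The spread of Itgb3 within late carcinoma was small beside its distance from hyperplasia. Col11a1, a chain of the fibril-forming type XI collagen, was at 637, 938 and 433 in week 6 and at 2168, 2697 and 2890 in week 12 (1.98 ± 0.248, adjusted p = 0.00873). It kept its call in 4 of 6 fits with a library left out. Papln, which encodes the basement membrane glycoprotein papilin, rose from 1108, 1526 and 1459 to 3584, 2853 and 4006 (1.38 ± 0.167, adjusted p = 0.00397).

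Boc, Chl1, Grik3, Accn2 and Mfi2, whose products sit at the cell surface, were DEGs as well. Boc, a Hedgehog co-receptor of the immunoglobulin superfamily, stood at 912, 940 and 794 normalized counts and rose to 2590, 2431 and 1844 (log2 fold change 1.40 ± 0.161, adjusted p = 0.00267). Chl1, an adhesion protein of the L1 family, rose from 371, 287 and 209 to 586, 798 and 1076 (1.54 ± 0.273, adjusted p = 0.0396). Grik3, a subunit of kainate-type glutamate receptors, was at 9.79, 25.03 and 29.5 and rose to 275, 145 and 177 (3.22 ± 0.529, adjusted p = 0.028). Grik3 was low in every hyperplasia sample, and its call was kept in 1 of 6 fits with a library left out. Accn2 (now Asic1), an acid-sensing sodium channel, had 0 reads in all 3 hyperplasia libraries and 268 reads over the 3 carcinoma libraries, at 47.3, 72.7 and 142 normalized counts. Set against 3 reads over the week 6 group, it was 112-fold higher (adjusted p = 0.028). This floor covers counting error only and takes each read as independent. In replicates 1, 2 and 3 of week 6 the number of genes by count peaked at 14, 25 and 13 reads. Single reads may thus not be independent, and the value of 112 is not a lower bound for these libraries. Mfi2 (now Meltf), the iron-binding melanotransferrin, rose from 123, 78.2 and 61.8 to 318, 539 and 433 (2.33 ± 0.344, adjusted p = 0.0154).

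Among transport and signaling genes, Atp6v1b1, a subunit of the proton pump V-ATPase, rose from 1622, 1486 and 1269 to 2920, 2906 and 3137 normalized counts (log2 fold change 1.06 ± 0.140, adjusted p = 0.00726). Clic6, a chloride intracellular channel protein, rose from 1407, 2282 and 1288 to 3879, 3517 and 3788 (1.20 ± 0.192, adjusted p = 0.028). The 3 carcinoma samples lay close together in both genes. Prkca, protein kinase C alpha, rose from 631, 859 and 789 to 1722, 1534 and 2051 (1.25 ± 0.171, adjusted p = 0.00873). The other increases, each between 1.00 and 1.73 on the log2 scale, were in Plekhb1, Ttc39b, Arhgap31, Rabep1, an effector of Rab5 in endocytosis, and Alpl, the tissue-nonspecific alkaline phosphatase. Under 2-fold but past the adjusted p were Osmr, the oncostatin M receptor (log2 fold change 0.93), Kit, the stem cell factor receptor that marks luminal progenitors (0.88), Igfbp5 (0.82) and the small nuclear RNA 7SK (0.63). Kit was at 1701, 1988 and 2378 in hyperplasia and at 3560, 3093 and 4329 in late carcinoma. Gm10722, with a log2 fold change of 4.23, belongs to a group of near-identical predicted genes among which reads cannot be placed with certainty.

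The largest decreases were in skeletal muscle genes. Myl1, the fast myosin light chain, on chr1:66970869-66991978, fell from 688, 538 and 196 normalized counts to 10.3, 2.14 and 15.7 (log2 fold change -5.59 ± 0.634, adjusted p = 0.00477). The call of Myl1 was kept in 5 of 6 fits with a library left out, those of Klhl31 and Ppp1r3a in 2 and that of Tnni2 in 1. Tnni2, troponin I of fast fibers, fell from 1011, 584 and 161 to 23.7, 32.1 and 39.7 (-4.16 ± 0.642, adjusted p = 0.0472). Ppp1r3a, which targets protein phosphatase 1 to muscle glycogen, fell by 4.40 on the log2 scale, and Klhl31 fell by 5.49. Within week 6 all of these were highest in replicate 1 or 2 and lowest in replicate 3, as the summed muscle markers were. All 12 muscle markers had a log2 fold change below 0 (median -4.80, against 0.0032 over all genes tested). An unadjusted p under 0.05 was seen in 10, against 4.51% of all genes in this direction, and Tnni2 passed the adjusted p. Without replicate 3 of week 6, the lowest of its group in muscle RNA, 6 of the 12 were called, and 0 were without any other single library, against 8 without the robust option and 9 by DESeq2. Myl1 lay between 0 and 656 in PyMT samples of week 10, between 59.9 and 12860 in FVB samples of week 6, and between 135 and 6321 in those of week 12.

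Genes of milk were lower as well. Lao1 encodes an L-amino acid oxidase that the mouse gland secretes into milk, and it lies on chr4:118634183-118641517. It fell from 5072, 2854 and 4996 to 879, 686 and 966 normalized counts (log2 fold change -2.33 ± 0.219, adjusted p = 0.00209), and the call held without each of the 6 libraries. Of 12 tested genes of milk proteins and the milk fat globule, 11 were below 0 (median -0.77). None passed the adjusted p, and 7 had an unadjusted p under 0.05, against 4.51% of all genes in this direction. In 7 every late carcinoma sample was lower, against 8.31% of all genes. The caseins Csn2 and Csn1s2a were at 23380, 5302 and 15140 and at 16620, 3301 and 13740 in hyperplasia, and at 1786, 313 and 2554 and at 1377, 276 and 972 in late carcinoma (log2 fold changes -3.21 and -3.66, adjusted p = 0.472 and 0.388). Wap, the whey acidic protein, was at 5236, 1544 and 3592 and then at 206, 313 and 716 (-3.04, adjusted p = 0.335). Replicate 2 of week 6, the library with the most genes at 0, was the lowest of its group in all 3, and the late carcinoma values lay below it. Csn3, kappa-casein, overlapped between the stages, at 42440, 24890 and 38150 and at 29760, 33560 and 39220 (-0.01). Ltf, lactoferrin, an iron-binding protein of milk, stood at 23690, 11440 and 19030 in week 6 and at 7877, 6475 and 8304 in week 12 (-1.23, adjusted p = 0.0647). Among 12 genes of acute phase and innate secretion, 5 had an unadjusted p under 0.05 with lower values and 1 with higher ones, against 4.51% and 4.95% of all genes. The 5 were Ltf, Pigr, Saa1, Saa2 and Orm1, and Chi3l1 was the 1 with higher values.

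Cell cycle genes were lower in late carcinoma than in hyperplasia, by less than 2-fold in nearly all cases. Proliferating cells copy their DNA with the MCM helicase, DNA polymerases and a supply of deoxynucleotides, and then separate the copies with the mitotic kinases, kinesins and kinetochore proteins. Rrm2, the small subunit of ribonucleotide reductase, which makes deoxynucleotides, was the DEG among them, on chr12:25393106-25399011 of mm9. It fell from 1216, 988 and 1446 to 545, 486 and 595 normalized counts (log2 fold change -1.14 ± 0.184, adjusted p = 0.028). The call was kept in 1 of 6 fits with a library left out, with adjusted p up to 0.182, and the groups do not overlap. Pola2, the second subunit of DNA polymerase alpha, was at 335, 528 and 457 and then at 150, 220 and 199 (-1.18, adjusted p = 0.107). Of 36 genes of DNA replication and nucleotide synthesis, 30 were below 0 (median -0.24). An unadjusted p under 0.05 was seen in 9 in that direction and none in the other, against 4.51% and 4.95% of all genes. Of the 36, 1 passed the adjusted p.

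Of 44 genes of the mitotic spindle, kinetochore and cytokinesis, 42 were below 0, against 49.7% of all genes (50.3% were above 0). Their median log2 fold change was -0.49 and the lowest -0.98. An unadjusted p under 0.05 was seen in 17 of 44 with lower values and in 0 with higher ones, against 4.51% and 4.95% of all genes. In 22 of 44 every late carcinoma sample was lower, against 8.31% of all genes. None of the 44 passed the adjusted p (lowest 0.103). Cenpf, a kinetochore protein, was at 1261, 1343 and 1066 normalized counts in hyperplasia and at 783, 726 and 737 in late carcinoma (-0.68). Cenpa, the centromeric histone, was at 414, 496 and 387 and then at 259, 216 and 256 (-0.80). Cdk1, the kinase that drives entry into mitosis, was at 726, 481 and 759 and then at 408, 359 and 476 (-0.63), and Mki67, the usual marker of cycling cells, at 5313, 4959 and 6016 and then at 3779, 3144 and 4740 (-0.45). In each of these 4 genes every hyperplasia sample lay above every late carcinoma sample. Of 56 replication-dependent histone genes, 48 were below 0 (median -0.31) and 8 had an unadjusted p under 0.05 with lower values, against 4.51% of all genes. Of 13 E2F and pocket protein genes 8 were below 0, against 49.7% of all genes. E2f2 was at 112, 173 and 137 and then at 59.6, 76.9 and 79.5 (-0.94, adjusted p = 0.515). Dnmt1, which copies DNA methylation after replication, was at 3017, 2632 and 2895 and then at 2697, 2676 and 2745 (-0.05).

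The stretches just before the transcription start of such genes often hold a CCAAT box, bound by NF-Y, and a CHR element, read by the DREAM and MuvB complexes, or an E2F site. They are shown for the 2 genes of smallest p in each of the 2 lists that the table holds, Rrm2 and Pola2 for replication and Cenpf and Cenpa for mitosis, and for Cdk1, since lower cell cycle genes are a main pattern of this comparison. The sequences are RefSeq's on GRCm38.p6, 150 bases ending 1 base before the first listed start, 5′ to 3′ on the gene's strand. Capitals mark CCAAT, the E2F forms TTTCCCGC, TTTGGCGC, TTTCGCGC and TTTGGCGG, and TTTGAA for CHR, each on either strand, so that CCAAT can read ATTGG. Coordinates are of this build and not of mm9.
Rrm2, chr12:24708104-24708253, plus strand: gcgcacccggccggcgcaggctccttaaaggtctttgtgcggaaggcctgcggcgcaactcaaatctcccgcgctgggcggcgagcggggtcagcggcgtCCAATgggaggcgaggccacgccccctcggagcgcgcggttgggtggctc
Pola2, chr19:5964207-5964356, minus strand: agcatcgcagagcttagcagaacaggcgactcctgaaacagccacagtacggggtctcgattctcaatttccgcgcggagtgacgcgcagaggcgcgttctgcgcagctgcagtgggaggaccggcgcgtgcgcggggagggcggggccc
Cenpf, chr1:189688087-189688236, minus strand: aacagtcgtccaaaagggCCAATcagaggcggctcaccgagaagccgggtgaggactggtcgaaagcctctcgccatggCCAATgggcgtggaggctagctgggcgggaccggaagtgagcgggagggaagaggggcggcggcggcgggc
Cenpa, chr5:30666736-30666885, plus strand: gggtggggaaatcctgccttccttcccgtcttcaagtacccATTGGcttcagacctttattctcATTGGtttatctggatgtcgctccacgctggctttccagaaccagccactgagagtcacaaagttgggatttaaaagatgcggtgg
Cdk1, chr10:69352913-69353062, minus strand: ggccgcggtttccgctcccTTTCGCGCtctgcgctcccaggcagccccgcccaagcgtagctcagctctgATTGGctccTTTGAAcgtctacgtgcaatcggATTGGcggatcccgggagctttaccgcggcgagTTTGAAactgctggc

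Cdk1 holds 5 matches in this window, Cenpf and Cenpa 2 CCAAT boxes each, Rrm2 1 and Pola2 none. Over 250 bases before the start, a CCAAT box was found in 26 of 37 mitotic genes that the table holds (70.3%) and in 18 of 28 replication genes (64.3%), against 34.5% of 27025 genes. The CHR letters were found in 13 of 37 mitotic genes (35.1%) and 5 of 28 replication genes (17.9%), against 16.3% of all, and an E2F form in 8 of 28 replication genes (28.6%) and 2 of 37 mitotic genes, against 2% of all. The collagens, which are not cell cycle genes, held a CCAAT box in 12 of 35 (34.3%). A match is a run of letters and was not tested for binding.

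**Figure D3:**
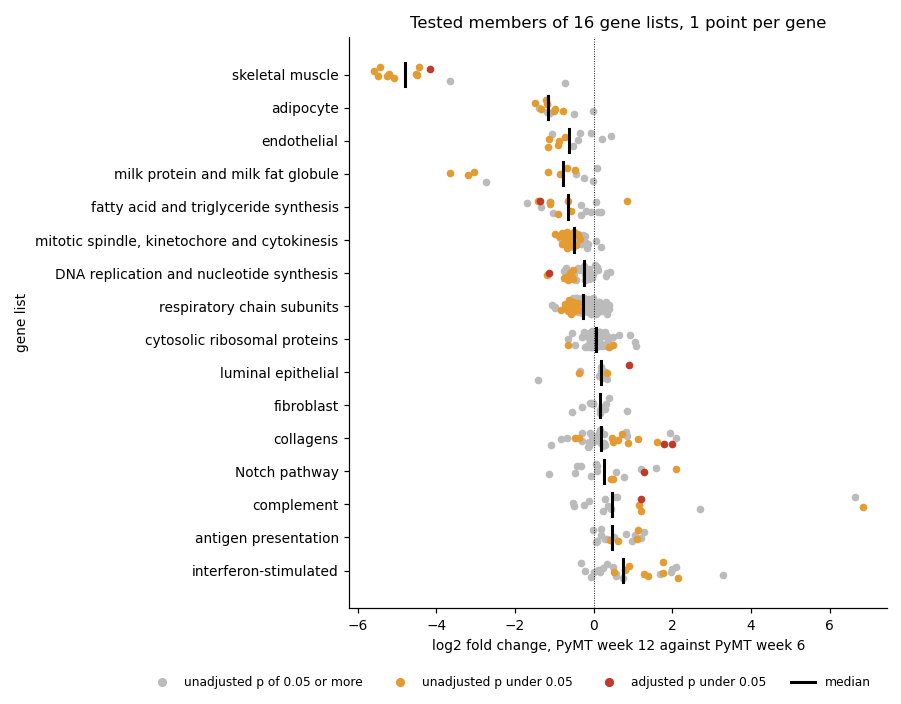
Log2 fold changes of PyMT week 12 against week 6 for the tested members of 16 gene lists, 1 point per gene, colored by p, with the median of each list as a black bar. Muscle genes lie at a median of -4.80, 42 of 44 mitotic genes lie below 0 and 22 of 25 interferon-stimulated genes lie above 0.

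Interferon and antigen presentation genes lay on the other side. Of 25 interferon-stimulated genes, 22 were above 0 (median log2 fold change 0.74), 8 had an unadjusted p under 0.05 with higher values and none with lower ones, against 4.95% and 4.51% of all genes, and none passed the adjusted p (lowest 0.124). Ifih1, a sensor of double-stranded RNA, was at 382, 393 and 352 normalized counts in hyperplasia and at 691, 606 and 626 in late carcinoma (0.80). Oasl2, of the 2′-5′ oligoadenylate synthetase family, was at 46.3, 57.4 and 48.8 and then at 121, 143 and 245 (1.77). Irf7, the transcription factor that amplifies the interferon response, was at 56.1, 33.4 and 112 and then at 129, 172 and 577 (2.14), highest in replicate 3 at both stages. The 3 hyperplasia samples summed to 3144 to 3474 over the list and the 3 late carcinoma samples to 4061 to 6363, while PyMT samples of week 8 ran from 2666 to 18460 and those of week 10 from 2887 to 3382. Of 18 antigen presentation genes 17 were above 0 (median 0.46), with sums of 11400 to 11850 at week 6, 11590 to 32800 at week 8, 11630 to 12430 at week 10 and 13550 to 16100 at week 12. The highest week 8 sample thus lay above all week 12 samples in both lists. H2-Ab1, a chain of MHC class II, was at 353, 273 and 217 and then at 689, 669 and 413 (1.10, adjusted p = 0.12), and Ctss, the cathepsin that trims the class II invariant chain, at 511, 477 and 229 and then at 1106, 886 and 605 (1.12, adjusted p = 0.182). Macrophages express both genes, and of the 12 macrophage markers 9 were above 0 (median 0.45). Of these, 1 had an unadjusted p under 0.05, C1qc, against 4.95% of all genes in this direction. Of 21 tested chemokine and chemokine receptor genes 16 were above 0 (median 0.72), and Cxcr4 was at 183, 160 and 97.6 and then at 281, 284 and 307 (1.02, adjusted p = 0.281).

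C4b, a component of the classical complement pathway, was the DEG among 16 complement genes, of which 12 were above 0 (median log2 fold change 0.47). It rose from 932, 1464 and 1212 to 2930, 2755 and 2395 normalized counts (1.19 ± 0.171, adjusted p = 0.0125). Casp1, which cleaves interleukin-1 beta in the inflammasome, rose from 97.0, 73.0 and 27.8 to 265, 401 and 299 (2.33 ± 0.438, adjusted p = 0.0472). Fits with a library left out kept the call of C4b in 3 of 6 and of Casp1 in 1 of 6. Of 12 fibroblast markers none had an unadjusted p under 0.05 (median 0.16).

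The collagens did not move as 1 group. Of 37 tested, 23 were above 0 (median log2 fold change 0.18), 9 had an unadjusted p under 0.05 with higher values and 2 with lower ones, against 4.95% and 4.51% of all genes, and Col9a2 and Col11a1 passed the adjusted p, against 0.168% of all genes. Without replicate 2 of week 6 and replicate 1 of week 12 together, the median was -0.24. Col12a1, a chain that sits on the surface of fibrils, was at 1189, 821 and 957 normalized counts and then at 2405, 1292 and 2632 (1.12, adjusted p = 0.0889). Col4a6, a basement membrane chain, was at 632, 509 and 586 and then at 834, 1010 and 1238 (0.86, adjusted p = 0.0818). The other chains of type IX, Col9a1 and Col9a3, had log2 fold changes of 0.49 and 0.72 with overlapping groups. Col1a1, the main collagen of stroma, was at 7906, 5246 and 8366 and then at 5417, 6483 and 5265 (-0.30). Of 23 metalloproteases, inhibitors and crosslinking enzymes, 5 had an unadjusted p under 0.05 with higher values, Mmp3 and Lox among them, and 1 with lower ones, Thbs1. The shares of all genes were 4.95% and 4.51%, and all groups of these genes overlapped.

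Of the Notch, IGF, ERBB, Wnt and TGF-beta lists, Hey1 and Igfbp5 passed the adjusted p. In the Notch pathway, Hey1, a transcription factor that Notch turns on, rose from 594, 733 and 396 to 1258, 1247 and 1546 normalized counts (log2 fold change 1.26 ± 0.215, adjusted p = 0.0313), with the call kept in 1 of 6 fits with a library left out, and of 16 genes 11 were above 0 (median 0.26). The ligand Dll1 was at 38.3, 120 and 249 and then at 662, 396 and 675 (2.10, adjusted p = 0.276), and the receptor Notch1 at 3256, 2270 and 3120 and then at 4158, 3905 and 3859 (0.49, adjusted p = 0.262). In the IGF axis, Igfbp5, a secreted IGF binding protein, was at 62640, 43760 and 45170 and then at 84870, 94530 and 82390 (0.82, adjusted p = 0.04), and the docking protein Irs1 at 1464, 1121 and 1112 and then at 1960, 2142 and 1877 (0.72, adjusted p = 0.0723). Of 11 ERBB receptors and ligands 6 were above 0 and 5 below (median 0.04). Among them, Egfr was at 1144, 1041 and 1183 and then at 1704, 1810 and 1953 (0.73, adjusted p = 0.0564). Egfr was the 1 of the 11 with every late carcinoma sample higher, and 1 had every one lower. The shares of all genes were 7.93% and 8.31%. Of 24 Wnt pathway genes 5 had an unadjusted p under 0.05 with higher values, the inhibitor Sfrp1 and the receptor Fzd1 first, and 2 with lower ones, against 4.95% and 4.51% of all genes. Of 24 TGF-beta and BMP genes 5 were higher and 1 lower by that measure, against the same shares of all genes, Ltbp2, which binds the matrix, being the one of smallest p (0.84, adjusted p = 0.0723). Of 14 genes of epithelial-mesenchymal transition, 9 were above 0 (median 0.12). Cdh1, E-cadherin, was at 3543, 2735 and 4188 and then at 3765, 4248 and 4459 (0.28).

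Of 17 mammary lineage transcription factors 3 had an unadjusted p under 0.05 with higher values, against 4.95% of all genes. Etv1 was among them, at 404, 849 and 455 normalized counts and then at 1047, 1237 and 1114 (log2 fold change 1.02, adjusted p = 0.124). Esr1, the estrogen receptor, was at 300, 275 and 333 and then at 264, 373 and 179 (-0.13), and Prlr, the prolactin receptor, at 2976, 2949 and 3182 and then at 2152, 2575 and 1622 (-0.49, adjusted p = 0.315). Of 21 claudins and tight junction genes, Cldn4 had the smallest p, at 754, 907 and 1031 and then at 412, 347 and 525 (-1.04, adjusted p = 0.0639). Of 12 imprinted growth genes 10 were below 0 (median -0.62), while Grb10, an adaptor that restrains insulin and IGF receptors, was at 479, 356 and 476 and then at 694, 1011 and 811 (0.97, adjusted p = 0.0752). Of 22 immediate early and stress genes 6 had an unadjusted p under 0.05, all with higher values, Jun first, against 4.95% of all genes in this direction.

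In lipid synthesis, Lpin1 passed the test. Lpin1, a phosphatidate phosphatase on the way to triglyceride, fell from 1029, 2246 and 1611 to 645, 510 and 711 normalized counts (log2 fold change -1.36 ± 0.248, adjusted p = 0.0472). Of 19 genes of fatty acid and triglyceride synthesis 15 were below 0 (median -0.65), 7 with an unadjusted p under 0.05 with lower values and 1 with higher ones, against 4.51% and 4.95% of all genes. Acly, which makes cytosolic acetyl-CoA, was at 9345, 14630 and 8354 and then at 4781, 3814 and 5954 (-1.12, adjusted p = 0.0655). Srebf1, the transcription factor that drives the pathway, went the other way, at 8254, 10400 and 8732 and then at 13170, 15060 and 19750 (0.84, adjusted p = 0.0513). Adipocytes use the same genes, and all 12 adipocyte markers were below 0 (median -1.15), 7 with an unadjusted p under 0.05, against 4.51% of all genes, and none past the adjusted p (lowest 0.0646). Plin1, which coats the fat droplet of adipocytes, was at 620, 1539 and 980 and then at 461, 318 and 311 (-1.50). Replicate 2 of week 6 was the highest of its group for Lpin1, Acly and Plin1. Of 21 cholesterol genes 18 were below 0 (median -0.43), 7 with an unadjusted p under 0.05, against 4.51% of all genes, Cyp51 first.

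Slc7a5, the light chain of the LAT1 transporter of large neutral amino acids, fell from 1981, 1607 and 2414 to 795, 746 and 1161 normalized counts (log2 fold change -1.12 ± 0.201, adjusted p = 0.04), while its list of 15 amino acid response genes had a median of -0.16. Several mitochondrial genes fell. Letm1, an inner membrane protein, fell from 731, 676 and 613 to 272, 242 and 323 (-1.24 ± 0.216, adjusted p = 0.0345), and Cyb5b, a cytochrome b5 of the outer membrane, from 1406, 2044 and 1438 to 844, 720 and 823 (-1.01 ± 0.175, adjusted p = 0.0345). Hspd1, the mitochondrial chaperonin, fell by 0.85 on the log2 scale, and mt-Nd2 fell by 0.93. Of 73 nuclear genes of the respiratory chain 54 were below 0 (median -0.29), 15 had an unadjusted p under 0.05 with lower values, against 4.51% of all genes, and none with higher ones, and in 22 of 73 every late carcinoma sample was lower, against 8.31%. Of 78 cytosolic ribosomal protein genes 53 were above 0 (median 0.06), with 2 higher and 1 lower at an unadjusted p under 0.05, against 4.95% and 4.51% of all genes. Lmnb1, lamin B1 of the nuclear envelope, fell from 826, 781 and 1048 to 321, 336 and 477 (-1.20 ± 0.217, adjusted p = 0.0415). With a library left out, the calls of Slc7a5, Lmnb1 and Lpin1 were kept in 2 of 6 fits and those of Letm1 and Cyb5b in 1.

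The remaining lists had medians between -0.27 and 0.09: glycolysis and hypoxia response, endoplasmic reticulum folding, p53 targets, glutathione and antioxidant enzymes, steroid and prolactin signaling, carbonic anhydrases and the circadian clock. None of their members passed the adjusted p. Of 17 glutathione and antioxidant genes 15 were below 0, against 49.7% of all genes. The list summed to 12700 to 13280 normalized counts at week 6 and to 10330 to 11140 at week 12. In 4 of the 17 every late carcinoma sample was lower and in 1 higher, against 8.31% and 7.93% of all genes. An unadjusted p under 0.05 was seen in 1 in each direction. Of the 12 endothelial markers 10 were below 0 (median -0.63), 5 with an unadjusted p under 0.05, against 4.51% of all genes in this direction. Vwf, von Willebrand factor, was at 326, 237 and 229 and then at 141, 170 and 114 (-0.87, adjusted p = 0.386). Red blood cell genes were higher, with Hba-a1 at 270, 288 and 159 and then at 384, 680 and 578 (1.23, adjusted p = 0.117). Of 25 genes that the study names for progression, a list chosen in part on these samples and so no independent evidence of a direction, 21 were below 0 (median -0.47). An unadjusted p under 0.05 was seen in 10 with lower values and 1 with higher ones, against 4.51% and 4.95% of all genes, and Rrm2 passed the adjusted p. Erbb4, the gene with higher values, was at 135, 256 and 153 and then at 403, 357 and 234 (0.90, adjusted p = 0.386).

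The DEGs were also followed at weeks 8 and 10. All 21 genes that rose had means at both weeks between those of weeks 6 and 12, and 19 of them rose in the order of the weeks. Of the 11 that fell, 7 had both means in between and 5 fell in order. The DEGs were chosen for values far apart at weeks 6 and 12, which by itself favors means in between. The share over all genes was not computed, so these counts do not show a steady course. The group means of Col9a2 were 323, 717, 1013 and 1085 normalized counts at weeks 6, 8, 10 and 12. Lao1 had means of 4307, 1174, 1705 and 844, and was thus lowest at week 12 but already low at week 8. Rrm2 had 1216, 875, 630 and 542.

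**Figure D4:**
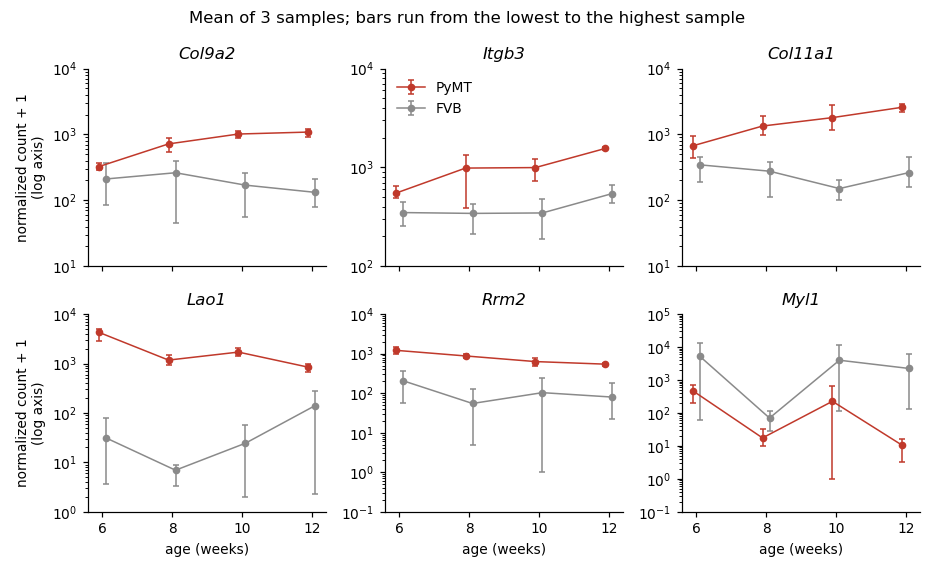
Normalized counts plus 1 of 6 DEGs at weeks 6, 8, 10 and 12 in PyMT (red) and FVB (grey), on log axes, as the mean of 3 samples with bars from the lowest to the highest sample. Means of Col9a2, Itgb3 and Col11a1 are higher at each later week in PyMT, Lao1 and Rrm2 are lower at week 12 than at week 6, and Myl1 has wide ranges in FVB and at week 10.

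The same comparison in FVB glands asked what 6 weeks of age do without the transgene. It called 0 of 14918 genes by edgeR's quasi-likelihood test (smallest adjusted p 0.11), with 827 at an unadjusted p under 0.05 (5.54%; 3% higher, 2.55% lower), and 61 by DESeq2's Wald test. With the replicate number as a block, 5 genes were called, without replicate 1 of FVB week 6 it was 4 and without replicate 2 of FVB week 12 it was 3. Deviations of same-numbered FVB samples of the 2 weeks correlated at 0.437 for replicate 1 and 0.345 for replicate 3. For replicate 2 the correlation was 0.111, within the range of FVB samples of unlike numbers (-0.488 to 0.178). The number at an unadjusted p under 0.05 was 1482 with the block, against 1356 in PyMT under the same block. It ran from 393 (without replicate 2 of FVB week 6) to 1478 (without replicate 1 of FVB week 6) when a library was left out. The counts therefore do not show that FVB changed less with age than PyMT. Of the 21 genes that rose in PyMT, 17 had a log2 fold change above 0 in FVB and 3 an unadjusted p under 0.05, and of the 11 that fell, 7 were below 0 and none had such a p. A test of the difference between the genotypes called 0 genes (smallest adjusted p 0.0963; 977 genes, 6.55%, at an unadjusted p under 0.05, and 78 by DESeq2). It called 7 without replicate 1 of FVB week 6, and 1 each without replicate 2 of PyMT week 6 and without replicate 2 of PyMT week 12. By that test 14 of the 21 and 4 of the 11 had an unadjusted p under 0.05. These included Boc, with a log2 fold change of 1.40 in PyMT and -0.32 in FVB (difference 1.71, unadjusted p = 0.000485), and Col9a2, with 1.78 and -0.71 (2.47, unadjusted p = 0.00192). The PyMT values that chose the DEGs enter this test too, which favors small p-values among them. Their counts and p-values are therefore no independent evidence of a difference between genotypes. Hey1 had log2 fold changes of 1.26 in PyMT and 1.53 in FVB, and their difference had an unadjusted p of 0.585.

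In the gene lists the genotypes shared some directions and not others. Mitotic genes had a median log2 fold change of -0.49 in PyMT and -1.67 in FVB, both below 0, and 4 of 44 had an unadjusted p under 0.05 for the difference, all toward higher values in PyMT, against 3.18% of all genes in this direction. The FVB mitotic sums overlapped between the weeks, at 2525 to 21360 normalized counts at week 6 and 1788 to 7766 at week 12. The FVB median thus rests on widely spread samples. The 36 replication genes had medians of -0.24 and -0.85, with overlapping FVB sums of 4717 to 13250 at week 6 and 4216 to 7914 at week 12. Rrm2 was at -1.14 in PyMT and -1.43 in FVB. Adipocyte markers went in opposite directions, with medians of -1.15 in PyMT and 0.65 in FVB, and 9 of 12 had an unadjusted p under 0.05 for the difference, against 3.37% of all genes in this direction. Interferon-stimulated genes had medians of 0.74 and 0.23, and 2 of 25 had such a p toward higher values in PyMT, against 3.18% of all genes in this direction. Antigen presentation genes had medians of 0.46 in PyMT and 0.44 in FVB, and complement genes 0.47 and 0.55. Macrophage markers had 0.45 and 0.34, and red blood cell genes 1.075 and 0.76. Increases in these lists were thus also seen in FVB glands. Such a p was seen in 0 of 18 antigen presentation genes. It was seen in 2 of 16 complement genes toward higher values in PyMT and in 2 of 12 macrophage markers toward lower ones.

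**Figure D5:**
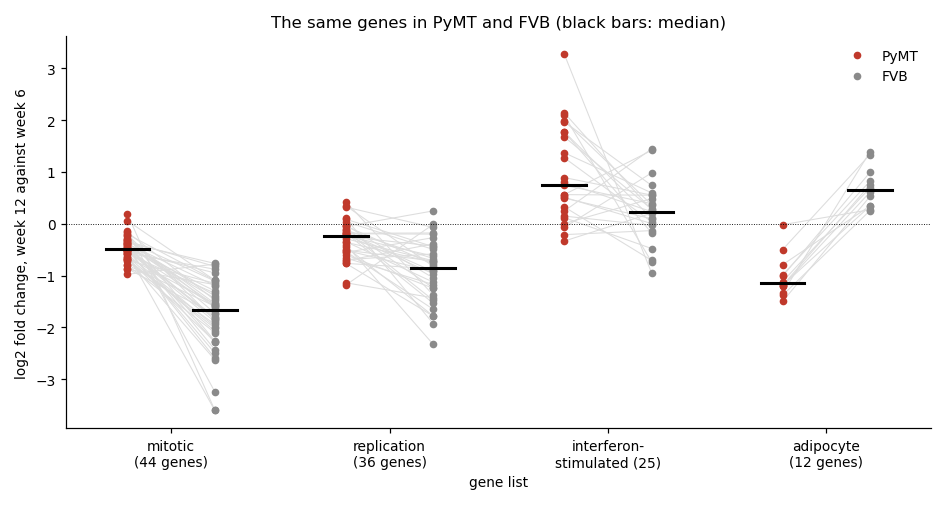
Log2 fold changes of week 12 against week 6 in PyMT (red) and FVB (grey) for the tested members of 4 gene lists, with lines joining the same gene and black bars at the medians. Medians of mitotic genes lie below 0 in both, at -0.49 and -1.67, while those of adipocyte markers lie below 0 in PyMT and above 0 in FVB. The summed mitotic counts of FVB overlapped between the weeks.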

How the data were processed

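Directional RNA sequencing after removal of ribosomal RNA measured mammary tissue of 24 mice. GSNAP alignment to mm9 and HTSeq counting by the authors gave the deposited whole-number counts, without normalization. The strand setting and annotation release are not given in the sources used here, so reads of overlapping genes may be shared. Coordinates and symbols of 37205 of 37991 genes came from GENCODE M1 (mm9). Upstream sequences came from RefSeq on GRCm38.p6, 1 start per gene.

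A gene was tested where 12 or more of the 24 samples reached a CPM of 1. The 6 PyMT samples were fitted alone in edgeR 4.0.16 (R 4.3.3, TMM scaling, robust quasi-likelihood test, Benjamini-Hochberg over all genes), the 6 FVB samples likewise, and the difference between genotypes was fitted in the 12 samples of both. The SE is the log2 fold change over the square root of F. Normalized counts are counts over DESeq2 1.42.0 size factors. A packet size is the peak, at 5 reads or more, of the number of genes by count. Samples were grouped by their titles, which give replicates but not litters, so p-values measure the spread between these samples. Total counts set the depth, and floors of 3 counts cover counting error only, with each read taken as independent. Replicates were checked for copies by the chi-square per gene, which was 19.3 to 58.6 within the PyMT groups.

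The samples, gene lists and tests were chosen with earlier results of these data known. Named are the 10 DEGs of largest change in each direction whose groups did not overlap and whose mean normalized count reached 100, the 5 in each direction of smallest adjusted p, up to 4 DEGs of each list or else 2 of its most abundant members, with further members where a result turns on them, the study's genes, and the 5 of smallest p in FVB and in the difference. The other DEGs, and the list members named for their small p, were chosen after their values were seen. Deviations from the group means of same-numbered samples of the 2 weeks correlated at 0.437, 0.111 and 0.345 in FVB for replicates 1, 2 and 3. FVB samples of unlike numbers ran from -0.488 to 0.178. Same-numbered PyMT samples ran from -0.0185 to 0.0335. Alternatives included DESeq2, limma 3.58.1, other scalings, filters, fits and samples. In 5 simulations with 4-fold changes, the fit recovered 66.9% of the changed genes, and 5.91% of its calls were of unchanged genes. The simulated counts were drawn without packets, and smaller changes were not simulated. The rates therefore need not hold for these libraries.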

Additional observations from a re-analysis of the deposited data

How the results depend on the processing

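No called log2 fold change of a named gene reversed its sign under the alternatives run. Of 3402 values, 2914 kept their sign and their side of the threshold, 306 lost a call and 87 gained one. The other 95, called neither in the main fit nor in the alternative, changed sign. The sign of the list median changed under at least 1 of 21 alternatives in 21 of 51 lists, collagens (-0.24 to 0.38), fibroblast markers (-0.27 to 0.33) and brown fat markers (-1.93 to 1.06) among them, and under none for the muscle, adipocyte, endothelial, milk, fatty acid, cholesterol, respiratory, replication, mitotic, histone, interferon, antigen presentation, complement and Notch lists. The 32 DEGs (21 higher, 11 lower) became 182 (93 and 89) with DESeq2, 190 (107 and 83) with the likelihood ratio test, 149 (71 and 78) with the exact test, 58 (35 lower) without the robust option, 2 (0 and 2) when the change had to exceed 2-fold by test, 75 (44 and 31) with limma voom, 213 (118 and 95) without a filter, 18 (13 and 5) with all 12 PyMT samples, 0 (0 and 0) with all 24 and 142 (91 and 51) after division by the packet size. The cause was not tested. Other scalings and the other filter gave 31 to 34. With 1 library left out the count ran from 3 to 96 (2 to 61 higher, 1 to 35 lower), and Col9a2, Itgb3 and Lao1 kept their call in all 6 fits. Without replicate 2 of week 6 and replicate 1 of week 12 together, chosen after seeing the data, it was 58 (40 and 18), of which 18 were among the 32.

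In FVB 0 genes were called, and DESeq2 gave 61, the likelihood ratio test 48, the exact test 39, library size only 2 and no filter 3, with 0 to 4 when a library was left out. For the difference between genotypes 0 became 78 with DESeq2, 55 with the likelihood ratio test and 1 each with library size only, no filter and packets, and 0 to 7 when a library was left out.

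With the replicate number as a block, PyMT had 43 DEGs (28 and 15), 25 of them among the 32, FVB 5 and the difference 1. PyMT samples of the same number did not deviate together. Depth limits genes of few reads, such as Grik3 and Accn2 at week 6.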

Other observations

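The gene groups in the next paragraphs, all outside the lists, were picked after their values were seen, so their counts carry no test. Of 9 protein genes of the mitochondrial genome 8 were lower in PyMT at the late stage (median -0.80 on the log2 scale), and 7 had an unadjusted p under 0.05. The FVB median of the same 9 genes was -0.20, and none had such a p. mt-Nd5, a subunit of respiratory complex I, was at 5060, 6493 and 4565 normalized counts in hyperplasia and at 2661, 3238 and 3149 in late carcinoma.

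The 5 genes of smallest p for FVB week 12 against week 6, Gm10718, Gm16869, Gm10722, Gm10800 and Gm11168, belong to a set of predicted genes with near-identical copies on chromosomes 2 and 9, whose counting is uncertain. All 12 tested members of this set had a log2 fold change above 0 in PyMT and in FVB. Gm10800 was at 293, 76.1 and 64.7 normalized counts in PyMT at week 6 and at 2640, 1072 and 3054 at week 12, a log2 fold change of 4.00, and of 3.88 in FVB.

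The 5 genes of smallest p for the difference between PyMT and FVB were Lgals12, Retn, Abhd5, Gpt2 and Abcd2. Fat cells express Lgals12, a galectin of the fat droplet, and Retn, the adipokine resistin. Lgals12 was at 398, 287 and 417 normalized counts in hyperplasia and at 138, 124 and 135 in late carcinoma (log2 fold change -1.45, and 0.73 in FVB). The difference of -2.19 had an adjusted p of 0.0963 by edgeR's quasi-likelihood test.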
